A study of Mus musculus with 703 samples.

Results

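The 8 genes described here, of 19088 in the deposited table, are Hmgcs1, Idi1, Fdft1, Sqle, Lss, Cyp51, Srebf2 and Insig1. They were chosen by symbol, as rows of the count table, because their products make cholesterol or control the genes that make it. Earlier results of these data were known at the time. None of them encodes a protein that takes cholesterol into the cell, so genes of lipoprotein uptake are given from a separate list. All 8 passed the filter on low counts in every comparison.

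Transcripts were measured by bulk RNA sequencing of gastrocnemius, a calf muscle made mostly of fast fibers, in 703 mice with 1 library each. The mice belonged to 20 CC-RIX strains, each the F1 cross of a pair among 19 Collaborative Cross lines, which are inbred lines that carry different mixtures of the same founder genomes. Females and males ate a diet with fiber and either 10% fat (the control diet) or 44% fat (the diet high in fat and sugar) from 6 weeks of age. Untreated animals numbered 234 on 10% fat and 235 on 44% fat, and of these 236 were female and 233 male. Animals given metformin, a drug for type 2 diabetes, numbered 57 females and 59 males on 10% fat, and 59 of each sex on 44% fat. Its concentration in the drinking water was 5 mg/mL, and dosing began when mice were 7 months old. Cohorts were kept to 6 and to 12 months, and the labels give no animal's age, so treated animals are of the older cohort and untreated animals can be of either. Metformin and age cannot be told apart in these libraries.

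Cholesterol is built from acetyl-CoA in the mevalonate pathway. Hmgcs1 encodes the cytosolic HMG-CoA synthase near its start, Idi1 the isomerase that makes the activated isoprene unit, and Fdft1 squalene synthase, the first enzyme committed to sterols. Sqle (squalene epoxidase), Lss (lanosterol synthase) and Cyp51 (lanosterol demethylase) then turn squalene into a ring and trim it. Srebf2 encodes SREBP2, the transcription factor that switches these genes on when sterols are scarce. Insig1 encodes the membrane protein that holds SREBP2's escort in the endoplasmic reticulum when sterols are plentiful, and it is itself an SREBP target. Liver is the main site of whole-body synthesis, and muscle fibers are better known for taking up and oxidizing fuel.

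The genes lie apart in the genome. By the deposited annotation, read as GRCm38, Hmgcs1 spans positions 119690462 to 119708086 and Idi1 positions 8885501 to 8892451, both on chromosome 13. Sqle (59315077 to 59331192) and Srebf2 (82147266 to 82205376) are on chromosome 15. Cyp51 (4081145 to 4104746) and Insig1 (28071363 to 28078662) are on chromosome 5, Fdft1 (63145153 to 63177793) on chromosome 14, and Lss (76531588 to 76557138) on chromosome 10. Fdft1 and Cyp51 are on the minus strand and the other 6 on the plus strand.

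SREBP2 binds sterol regulatory elements, for which the letters TCACNCCAC were searched, and it commonly acts beside the factors NF-Y and SP1, for which CCAAT and GGGCGG were searched. Both strands of the 250 bases before each start were read from RefSeq's promoter windows (GRCm38.p6), which hold 6 of the 8 genes. The start in the deposited annotation lies downstream of the Hmgcs1 window and inside the windows of Idi1 and Insig1. The windows of Hmgcs1, which was higher on 44% fat in untreated animals, and of Idi1 and Insig1, which were lower, are shown with every match in capitals and in the direction of transcription, here the plus strand.
Hmgcs1, chr13:119690101-119690350: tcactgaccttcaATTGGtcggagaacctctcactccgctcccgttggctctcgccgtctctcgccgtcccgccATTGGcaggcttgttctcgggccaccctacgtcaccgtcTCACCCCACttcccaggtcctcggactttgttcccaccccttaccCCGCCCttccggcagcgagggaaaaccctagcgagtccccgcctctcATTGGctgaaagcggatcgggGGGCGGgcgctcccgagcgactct
Idi1, chr13:8885356-8885605: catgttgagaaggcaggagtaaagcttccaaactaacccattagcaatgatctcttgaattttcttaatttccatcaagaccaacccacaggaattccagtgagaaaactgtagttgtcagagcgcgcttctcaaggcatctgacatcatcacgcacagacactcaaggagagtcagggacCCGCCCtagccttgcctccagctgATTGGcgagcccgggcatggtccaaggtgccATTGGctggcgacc
Insig1, chr5:28071162-28071411: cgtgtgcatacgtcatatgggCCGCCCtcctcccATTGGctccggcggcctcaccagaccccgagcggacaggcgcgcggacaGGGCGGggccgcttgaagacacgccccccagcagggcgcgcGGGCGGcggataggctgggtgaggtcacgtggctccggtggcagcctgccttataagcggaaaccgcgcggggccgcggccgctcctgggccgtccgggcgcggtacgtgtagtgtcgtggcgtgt

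TCACNCCAC was present in the Hmgcs1 window, 137 to 129 bases before the start, and in none of the other 5 windows (Idi1, Lss, Cyp51, Insig1 and Srebf2). It occurred in 1.23% of the 27018 genes with a window. CCAAT was present in all 6 windows, against 37.5% of genes, and GGGCGG in all 6, against 35.4%. All matches in the Idi1 window, and the CCAAT match of Cyp51, lie downstream of the start in the deposited annotation. No match overlapped a match of another motif in the windows shown. A match is a string of letters and not a measured site.

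Library totals ranged from 27.4M to 96.1M counts, with a median of 47.9M. Muscle fiber markers summed to a median of 150600 CPM (counts scaled to library size) over all libraries, and their lowest sum was 104700, so muscle was present in every library. By expression, 15 libraries went against their sex label and 4 were closest to another strain. Leaving out these 19 changed the call of 2 values of the 4 tests of diet, sex and metformin, which are given beside them. Sequencing identifiers fall into a lower range (544 libraries) and an upper range (159 libraries), which entered each model as a term. Because the tissue is bulk, a lower level can mean fewer cells of a type or less RNA per cell, and these cannot be told apart.

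Per length, Fdft1 had the highest level and Sqle the lowest. Over all 703 libraries the median level per kilobase of exon was 9.90 CPM for Fdft1, 6.16 for Hmgcs1 and 4.13 for Insig1. It was 2.09 for Idi1, 1.69 for Srebf2 and 1.35 for Cyp51, and 0.393 for Lss and 0.343 for Sqle. The length joins the exons of all annotated transcripts of a gene, 10787 bases for Lss and 5546 for Sqle. Without division by length the medians were 4.24 CPM for Lss, 1.90 for Sqle and 5.94 for Cyp51. Sqle, the least expressed, had a lowest count of 21 and a median count of 92, while Fdft1 had a median count of 2030. The precision of a single library is therefore lowest for Sqle.

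**Figure D1:**
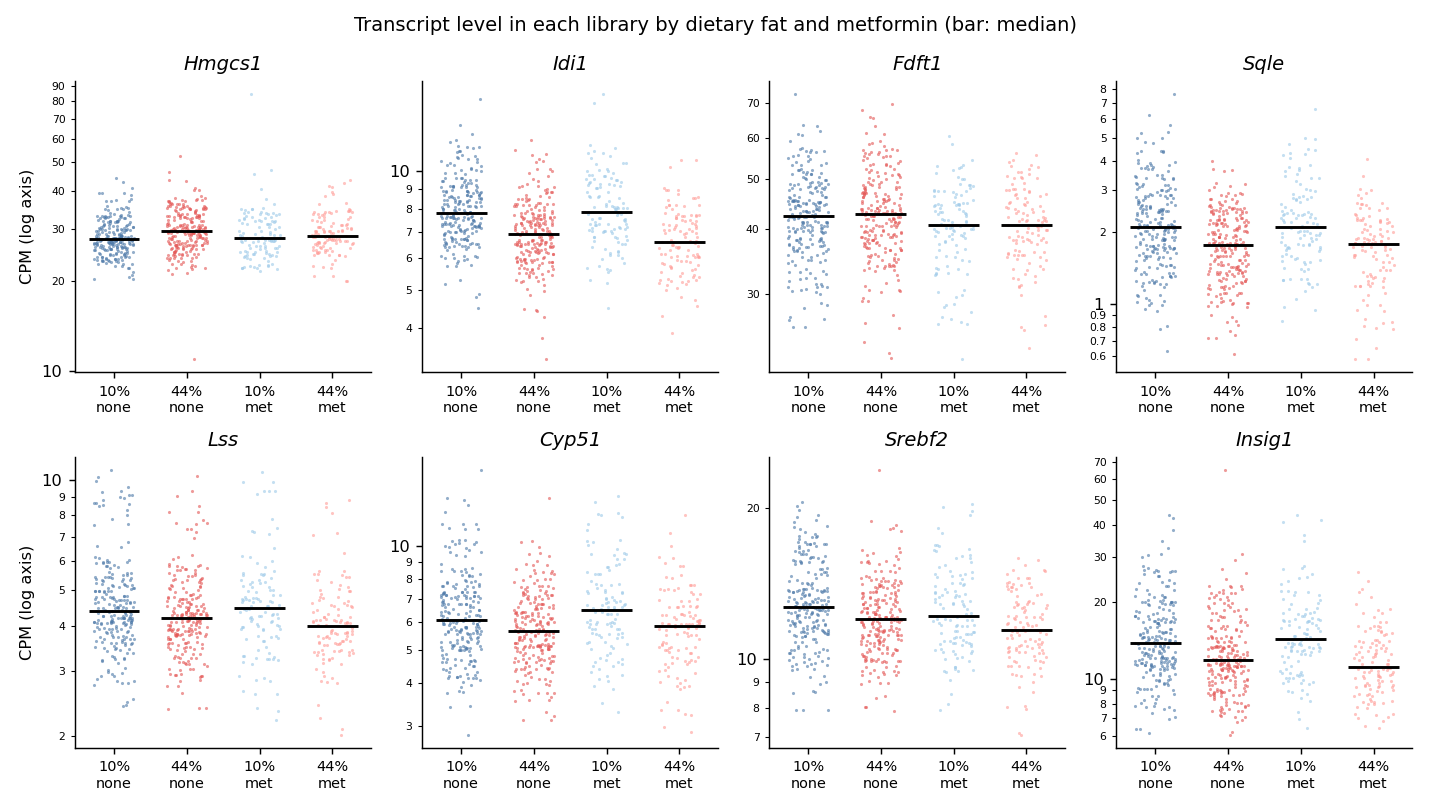
Level of each gene (CPM, log axis) in every library by percent of fat in the diet, without metformin (none) or with it (met). Points are libraries and bars are medians. The groups overlap for every gene, and the median of Idi1 was 7.84 on 10% and 6.93 CPM on 44% fat in untreated animals.

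Diet was compared first in the 469 mice without metformin, with strain, sex and identifier range in the model (edgeR quasi-likelihood F test, adjusted p by Benjamini-Hochberg over all genes tested). Of the 8 genes, 6 were lower on 44% fat (Sqle, Insig1, Idi1, Cyp51, Lss and Srebf2), 1 was higher (Hmgcs1), and Fdft1 did not pass. Over all 16384 genes tested, 10.1% were called lower and 10.1% higher. The median log2 difference, 44% minus 10% fat, was -0.12 over the 8 genes and -0.003 over all genes. The changes were small beside the spread between animals.

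Among the early enzymes, Hmgcs1 had a lowest, median and highest level of 20.3, 27.6 and 44.1 CPM on 10% fat and of 11.01, 29.35 and 52.55 CPM on 44% fat. The ranges overlapped nearly in full. Its log2 difference was 0.08 ± 0.02 (SE, edgeR adjusted p = 0.000181), a rise of 5.4%. Idi1 had levels of 4.49, 7.84 and 15.2 CPM on 10% fat and of 3.34, 6.93 and 11.9 CPM on 44% fat. It was lower on 44% fat through most of its range, although the groups overlapped. The log2 difference was -0.19 ± 0.02 (SE, edgeR adjusted p = 1.05e-14), the smallest adjusted p of the 8. Fdft1, the branch point to sterols, had levels of 25.9, 42.3 and 72.7 CPM on 10% fat and of 22.6, 42.7 and 69.7 CPM on 44% fat. Its groups could not be told apart, with a log2 difference of 0.01 ± 0.02 (SE, edgeR adjusted p = 0.683) and a 95% interval of -0.02 to 0.05.

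Sqle, the later of the enzymes known to limit the pathway's rate, moved the most. It had a lowest, median and highest level of 0.629, 2.105 and 7.62 CPM on 10% fat and of 0.616, 1.77 and 3.98 CPM on 44% fat. The lowest libraries of both diets were alike, and the high libraries were those of the 10% diet. The log2 difference was -0.34 ± 0.04 (SE, edgeR adjusted p = 9.58e-12), so that the level fell by 20.7%. On variance-stabilised values, a log2-like scale that compresses differences at low counts, limma gave Sqle -0.13 (adjusted p = 7.79e-10), and on the same scale Lss was at -0.05 and Cyp51 at -0.08, all still called. Lss had levels of 2.41, 4.38 and 10.65 CPM on 10% fat and of 2.36, 4.205 and 10.2 CPM on 44% fat, with groups that overlapped throughout. Its log2 difference was -0.10 ± 0.03 (SE, edgeR adjusted p = 0.0053). Cyp51 had levels of 2.835, 6.08 and 16.6 CPM on 10% fat and of 3.12, 5.67 and 13.7 CPM on 44% fat, again with overlap. Its log2 difference was -0.14 ± 0.02 (SE, edgeR adjusted p = 1.18e-06).

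Of the regulators, Insig1 had a lowest, median and highest level of 6.15, 13.8 and 43.5 CPM on 10% fat and of 6.06, 11.8 and 65.3 CPM on 44% fat. The highest library of all was on 44% fat although the median was lower there. The log2 difference was -0.21 ± 0.04 (SE, edgeR adjusted p = 2.78e-05). Without that library it was -0.23 (edgeR adjusted p = 1.29e-06). Srebf2 had levels of 7.92, 12.7 and 20.6 CPM on 10% fat and of 7.91, 12.0 and 23.85 CPM on 44% fat. The groups overlapped in full, and the log2 difference was -0.10 ± 0.02 (SE, edgeR adjusted p = 0.000173).

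The direction held across genetic backgrounds for some of the genes more than for others. Fitted within each of the 20 strains, Idi1 and Sqle were lower on 44% fat in 20 strains each. Cyp51 was lower in 18, Srebf2 in 17, Lss in 15 and Insig1 in 15. Hmgcs1 was higher in 17 strains, and Fdft1 was higher in 11 and lower in 9. In treated animals, where 18 strains allowed the contrast, Idi1 was lower in 18, Sqle, Cyp51 and Insig1 in 16 each, Lss in 15 and Srebf2 in 11. There Fdft1 was lower in 9 and higher in 9, and Hmgcs1 was higher in 12. The widest range in untreated animals belonged to Insig1, from -0.74 ± 0.20 (SE) in (CC012/GeniUncJ x CC002/UncJ)F1 to 0.38 ± 0.25 in (CC019/TauUncJ x CC042/GeniUncJ)F1. The latter strain holds the highest Insig1 library of all, at 65.3 CPM on 44% fat, which enters its value. Among untreated animals of (CC043/GeniUncJ x CC042/GeniUncJ)F1 all 8 genes were lower on 44% fat. In (CC002/UncJ x CC043/GeniUncJ)F1 and in (CC002/UncJ x CC075/UncJ)F1, 3 were lower and 5 higher.

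**Figure D2:**
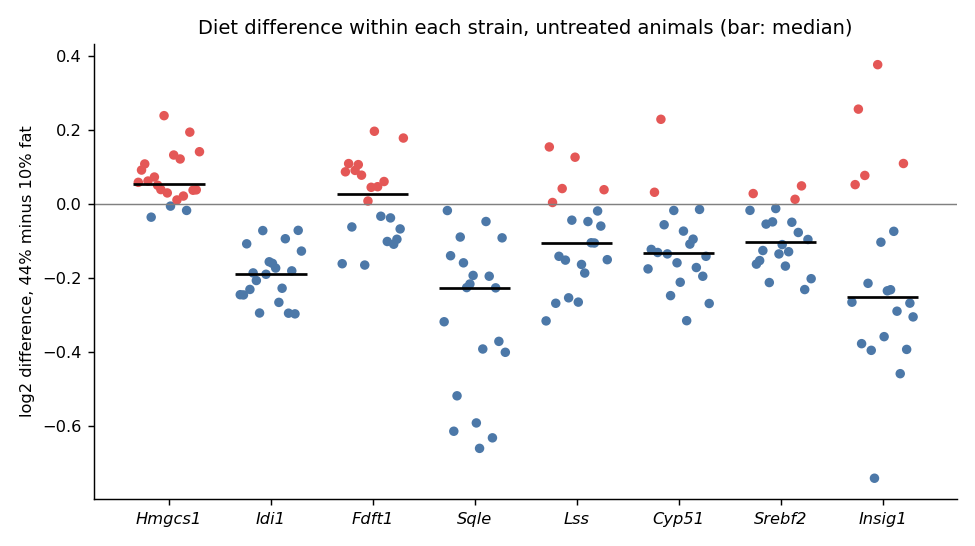
Log2 difference between diets, 44% minus 10% fat, within each strain for untreated animals. Each point is 1 of 20 strains, red above 0 and blue below, and bars are medians over strains. All points of Idi1 and Sqle lie below 0, and 17 of those of Hmgcs1 lie above it.

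Within the lower identifier range alone (400 untreated libraries), the same 7 genes were called with the same signs, and their log2 differences were 0.08 for Hmgcs1, -0.33 for Sqle, -0.17 for Idi1, -0.12 for Lss, -0.14 for Cyp51, -0.20 for Insig1 and -0.10 for Srebf2. Within the upper range alone (69 libraries), Sqle and Idi1 were called, at -0.37 and -0.30. There the other values were 0.03 for Hmgcs1, -0.04 for Lss, -0.19 for Cyp51, -0.23 for Insig1 and -0.10 for Srebf2, and none of these passed. Summed hepatocyte markers moved with diet. They had a median of 22.8 CPM on 10% fat (range 1.86 to 6396) and of 13.8 CPM on 44% fat (range 1.92 to 1723), and each of the 8 markers had a median above 0 in both. Summed adipocyte markers had medians of 220.7 CPM (range 88.3 to 1011) and 227.9 CPM (range 86.9 to 1351), also with each of 8 above 0. With the hepatocyte, adipocyte and Schwann cell sums as covariates the same 7 genes were called, at -0.33 for Sqle, -0.28 for Insig1, -0.19 for Idi1 and 0.06 for Hmgcs1.

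The rest of the pathway was described from lists of its other genes, which were also chosen with earlier results of these data known. Of 15 other cholesterol synthesis genes tested, 12 were lower on 44% fat, 0 higher and 3 did not pass (Mvk, Mvd and Lbr), with a median log2 difference of -0.11. Among the falls were -0.27 ± 0.05 (SE) for Acat2, which condenses acetyl-CoA ahead of Hmgcs1, and -0.18 ± 0.03 for Dhcr7, which acts last. Of the 7 genes that lead from the pathway to ubiquinone, dolichol and protein prenylation, edgeR called 0, with an unadjusted p under 0.05 for 2 and a median of -0.02.

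Among 11 uptake genes tested, 4 were lower, 1 higher and 6 did not pass. Npc1l1, Stard4 and Npc2 were among those lower. Npc1l1 had a mean log2 CPM below 1 in untreated animals, and it did not pass in the metformin-treated animals. Vldlr, which takes up triglyceride-rich lipoproteins, was the gene that was higher, at 0.05 ± 0.02. Of 9 other genes of SREBP processing, Srebf1 was lower, at -0.20 ± 0.04 (SE, edgeR adjusted p = 1.99e-06), while 8 did not pass. Of 7 liver X receptor and efflux genes, Nr1h3 was higher and Soat1 lower. The 10 fatty acid synthesis genes were all lower, with a median of -0.56 and a difference of -1.25 ± 0.11 (SE) for Fasn, so the cholesterol genes moved less than these did.

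The same contrast in the 234 metformin-treated animals used other mice. There 6 of the 8 genes were lower on 44% fat, 0 were higher, and Hmgcs1 and Fdft1 did not pass. Over all 16418 genes tested, 6.79% were called lower and 5.27% higher. The median log2 difference was -0.20 over the 8 genes and -0.01 over all genes. Sqle again had the largest difference among the 8. Its lowest, median and highest levels were 0.848, 2.11 and 6.59 CPM on 10% fat and 0.586, 1.79 and 4.09 CPM on 44% fat, with overlap, and the log2 difference was -0.39 ± 0.06 (SE, edgeR adjusted p = 6.13e-08). Insig1 had levels of 6.42, 14.3 and 43.7 CPM on 10% fat and of 6.44, 11.1 and 26.2 CPM on 44% fat. Here both the median and the top of the range were lower on 44% fat, and the log2 difference was -0.38 ± 0.05 (SE, edgeR adjusted p = 3.25e-09).

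Idi1 had a log2 difference of -0.26 ± 0.03 (SE) in treated animals, Cyp51 of -0.22 ± 0.03, Lss of -0.18 ± 0.04 and Srebf2 of -0.13 ± 0.03. Hmgcs1 had levels of 21.6, 27.9 and 84.4 CPM on 10% fat and of 20.0, 28.4 and 43.5 CPM on 44% fat. A single library on 10% fat stood at the top, and the difference of 0.01 ± 0.03 (SE, edgeR adjusted p = 0.855) had a 95% interval of -0.04 to 0.07. Fdft1 was at 0.02 ± 0.02 (SE, edgeR adjusted p = 0.702). Within the lower range of identifiers 5 of the 8 were called, with -0.35 for Sqle, -0.44 for Insig1 and -0.08 for Srebf2, which lost its call. Within the upper range 3 were called, which were Hmgcs1 (0.12), Idi1 (-0.26) and Srebf2 (-0.13), while Sqle was at -0.32 (edgeR adjusted p = 0.0548), Insig1 at -0.18, Cyp51 at -0.12 and Lss at -0.02.

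**Figure D3:**
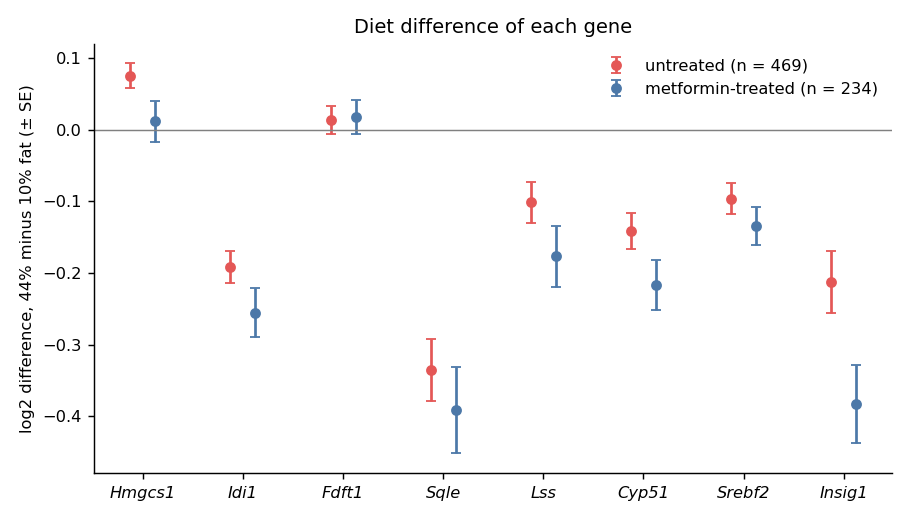
Log2 difference between diets, 44% minus 10% fat, with its standard error, for untreated (n = 469) and metformin-treated (n = 234) animals. Points below 0 are lower on 44% fat. Hmgcs1 and Fdft1 lie at or above 0 in both sets, and the other 6 genes lie below it.

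Of the 15 other synthesis genes, 9 were lower and 0 higher in treated animals (median -0.12), with -0.41 ± 0.06 (SE) for Acat2 and -0.16 ± 0.04 for Dhcr7. Of 7 isoprenoid genes and of 7 liver X receptor and efflux genes edgeR called 0, with an unadjusted p under 0.05 for 1 of each. Of the 11 uptake genes 4 were lower, among them Npc2, Stard4 and Scarb1. Of the 9 genes of SREBP processing 3 were lower, with Srebf1 at -0.29 ± 0.05. All 10 fatty acid synthesis genes were lower, with Fasn at -1.70 ± 0.14. In both sets of animals, then, 6 of the 8 genes passed as lower on 44% fat. Whether diet acted differently with and without metformin was tested by the interaction given further on.

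Strain took a larger share of the variance than diet for all 8 genes. As omega squared on log2 CPM (prior count 2) in untreated animals, strain accounted for 39.7% of the variance of Cyp51, 35.2% of Fdft1 and 33.3% of Lss. It accounted for 23.95% of Hmgcs1, 21.75% of Sqle, 20.96% of Insig1, 16.7% of Srebf2 and 15.2% of Idi1. Diet accounted for 11.1% of the variance of Idi1 and 6.56% of Sqle, for 1.16% to 3.86% in 5 others, and for no share above 0 in Fdft1. All 8 genes were called for strain (edgeR F test over 19 terms, largest adjusted p = 2.02e-15), beside 95.4% of all genes tested, so that the call itself sets these genes apart from few others.

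Lss had the clearest single strain. In (CC030/GeniUncJ x CC002/UncJ)F1 its lowest, median and highest levels were 6.17, 8.57 and 10.2 CPM, and its mean was 8.52 ± 0.99 (SD, n = 24). The next strain, (CC024/GeniUncJ x CC002/UncJ)F1, had a mean of 4.84 ± 1.69 (SD, n = 24), and the lowest, (CC009/UncJ x CC013/GeniUncJ)F1, had 3.80 ± 0.81 (SD, n = 10). The gap between the highest strain and the next was 2.65 pooled SD on the log2 scale. It was the only gap between neighbors in rank, among 19 for each gene, that exceeded 1 SD, so no other order of neighboring strains stands clear of the spread. The highest library of the lowest strain was at 5.25 CPM, so the highest and the lowest strain did not overlap. The next strain did overlap the highest, with libraries from 2.74 to 10.65 CPM. Libraries of some other strains also reached into its range, up to 9.58 CPM in (CC051/TauUncJ x CC059/TauUncJ)F1.

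For the other genes the range over strains was 1.30-fold to 2.30-fold. Cyp51 went from 9.10 ± 2.62 CPM (SD, n = 24) in (CC019/TauUncJ x CC042/GeniUncJ)F1 to 4.53 ± 0.73 (SD, n = 24) in (CC002/UncJ x CC043/GeniUncJ)F1, and these strains did not overlap. Insig1 went from 20.8 ± 6.24 CPM (SD, n = 24) in (CC042/GeniUncJ x CC040/TauUncJ)F1 to 9.01 ± 2.01 (SD, n = 24) in (CC002/UncJ x CC043/GeniUncJ)F1, with overlap. Sqle went from 2.77 ± 0.92 CPM (SD, n = 24) in (CC019/TauUncJ x CC042/GeniUncJ)F1 to 1.38 ± 0.42 (SD, n = 24) in (CC012/GeniUncJ x CC002/UncJ)F1, also with overlap. Idi1 was highest in the same strain as Sqle, at 9.07 ± 2.05 (SD, n = 24), and lowest in (CC002/UncJ x CC043/GeniUncJ)F1, at 6.21 ± 1.08 (SD, n = 24).

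Fdft1 followed another order. It was highest in (CC011/UncJ x CC027/GeniUncJ)F1, at 50.6 ± 5.42 CPM (SD, n = 24), and lowest in (CC051/TauUncJ x CC019/TauUncJ)F1, at 34.1 ± 5.16 (SD, n = 24). Hmgcs1 went from 34.8 ± 4.62 CPM (SD, n = 22) in (CC042/GeniUncJ x CC060/UncJ)F1 to 24.5 ± 2.67 (SD, n = 24) in (CC012/GeniUncJ x CC002/UncJ)F1. Srebf2 went from 14.5 ± 1.88 CPM (SD, n = 22) in (CC042/GeniUncJ x CC060/UncJ)F1 to 11.2 ± 1.79 (SD, n = 24) in (CC002/UncJ x CC075/UncJ)F1. The strain (CC002/UncJ x CC043/GeniUncJ)F1 was the lowest of 20 for Idi1, Cyp51 and Insig1, and a strain with CC042/GeniUncJ as a parent was the highest for 6 of the 8 genes.

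The parent CC042/GeniUncJ was singled out after these values were seen, so what follows is a description. It is a parent of 6 of the 20 strains. For Sqle and for Insig1 these 6 held ranks 1 to 6. Their mean levels of Sqle lay between 2.44 and 2.77 CPM, above those of the other 14 strains (1.38 to 2.16 CPM). For Insig1 they lay between 15.2 and 20.8 CPM, against 9.01 to 15.2 CPM in the others. For Hmgcs1 the 6 held ranks 1 to 5 and 7, and for Cyp51 ranks 1 to 3, 5, 6 and 8. The mean log2 difference between the 6 strains and the other 14 was 0.50 for Sqle, 0.42 for Cyp51, 0.41 for Insig1 and 0.21 for Hmgcs1. It was 0.16 for Srebf2, 0.13 for Idi1, 0.004 for Lss and -0.09 for Fdft1. Strains with a parent in common are not independent of each other.

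In metformin-treated animals, which are other mice of the same strains, the 6 strains held ranks 1 to 6 for Insig1 and for Srebf2, ranks 1 to 5 and 11 for Sqle, and ranks 1 to 4, 6 and 7 for Cyp51. The mean log2 differences there were 0.51 for Insig1, 0.51 for Sqle, 0.50 for Cyp51, 0.24 for Srebf2 and 0.23 for Hmgcs1. The treated ranks and differences of Idi1, Lss and Fdft1, and the treated ranks of Hmgcs1, are not reported here. In the lower identifier range alone, which holds untreated animals of 19 strains, the ranks were 1 to 6 for Hmgcs1, 1 to 5 and 11 for Sqle, and 1 to 4, 6 and 8 for Insig1. Ranks of the other genes in that range are not reported here. Summed adipocyte markers in untreated animals put the 6 strains at ranks 2 to 18, with a mean log2 difference of 0.09. Strains with the parent CC002/UncJ, of which there are 5, held ranks 7, 16, 18, 19 and 20 for Sqle, ranks 6, 17, 18, 19 and 20 for Srebf2, and ranks 1, 2, 4, 17 and 18 for Lss, so that they did not stand together for every gene. The 3 strains with CC051/TauUncJ held ranks 17, 18 and 20 for Fdft1.

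**Figure D4:**
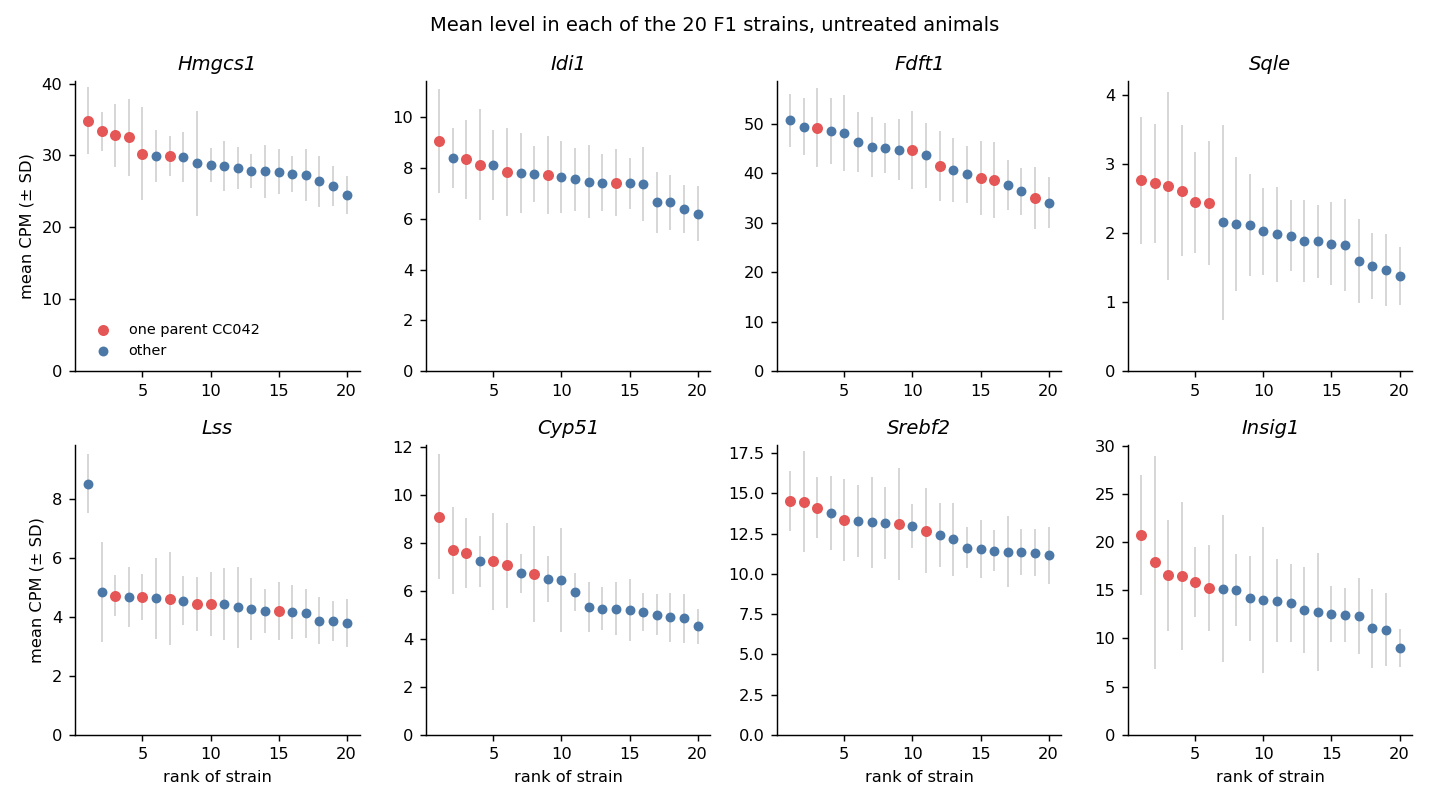
Mean level (CPM) with its SD in each of the 20 strains, in order of rank, for untreated animals. Red points have CC042/GeniUncJ as a parent and blue points do not. Red points take the first 6 ranks for Sqle and Insig1, and the first point of Lss, at 8.52 CPM, is (CC030/GeniUncJ x CC002/UncJ)F1.

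Sex was compared in untreated animals in the same fit. Of the 8 genes 4 were lower in males (Cyp51, Sqle, Srebf2 and Lss) and 0 higher, against 37% of all genes lower and 30.1% higher, a share near the background. Cyp51 had lowest, median and highest levels of 3.75, 6.11 and 16.6 CPM in females and of 2.835, 5.61 and 13.8 CPM in males, with overlap. Its log2 difference, males minus females, was -0.20 ± 0.02 (SE, edgeR adjusted p = 1.84e-13). Sqle was at -0.18 ± 0.04 (SE), Srebf2 at -0.11 ± 0.02 and Lss at -0.10 ± 0.03. Idi1 was at -0.05 ± 0.02 (SE, edgeR adjusted p = 0.0562), and passed in 5 alternatives. These were DESeq2's size factors (edgeR adjusted p = 0.0305), DESeq2 (adjusted p = 0.0326), variance-stabilised values with limma (adjusted p = 0.0336), and leaving out the library highest in Insig1 (edgeR adjusted p = 0.0335) or the 19 libraries against their sex or strain label (edgeR adjusted p = 0.0492). Hmgcs1, Fdft1 and Insig1 did not pass. Of the 15 other synthesis genes 8 were lower in males and 2 higher, with -0.36 ± 0.05 (SE) for Acat2 and 0.40 ± 0.04 for Hsd17b7. Uptake genes went both ways, with 6 of 11 lower and 4 higher. Of the 9 SREBP processing genes 2 were lower and 6 higher, with Srebf1 at 0.58 ± 0.04. Of the liver X receptor and efflux genes 2 were lower and 1 higher, of the isoprenoid genes 1 lower and 5 higher, and of the fatty acid synthesis genes 8 lower and 2 higher, with Fasn at -1.19 ± 0.11.

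Summed adipocyte markers moved with sex, with a median of 249.4 CPM in females (range 86.9 to 1154) and 192.2 CPM in males (range 88.3 to 1351). With the 3 marker sums as covariates, Sqle (-0.08) and Lss (-0.02) were no longer called, Cyp51 (-0.17) and Srebf2 (-0.10) were, and Insig1 was higher in males at 0.24 ± 0.04 (SE, edgeR adjusted p = 3.09e-10), as was Hmgcs1 at 0.04 ± 0.02 (SE, edgeR adjusted p = 0.0109). Insig1 was also called without the libraries highest in adipocyte markers (0.12, edgeR adjusted p = 0.00211). There Sqle kept its call, at -0.12. In the upper identifier range alone 0 of the 8 were called, with -0.17 for Cyp51, -0.14 for Sqle, -0.07 for Srebf2 and 0.02 for Lss. In the lower range the same 4 were called, at -0.20, -0.17, -0.11 and -0.13.

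Metformin was compared in all 703 animals. Of the 8 genes 3 were lower in treated animals and 0 higher, against 11% of 17740 genes lower and 8.34% higher. Idi1 had lowest, median and highest levels of 3.34, 7.37 and 15.2 CPM in untreated and of 3.89, 7.19 and 15.6 CPM in treated animals, and the groups overlapped in full. Its log2 difference, metformin minus untreated, was -0.06 ± 0.02 (SE, edgeR adjusted p = 0.0382). Fdft1 was at -0.06 ± 0.02 (SE, edgeR adjusted p = 0.0115) and Srebf2 at -0.05 ± 0.02 (SE, edgeR adjusted p = 0.0284). The other 5 lay between -0.06 and 0.001. None of the 3 calls held within either identifier range alone, where Idi1 was at -0.04 and -0.09, Fdft1 at -0.05 and -0.04, and Srebf2 at -0.05 and -0.10, for the lower and the upper range. Idi1 also lost its call without the 19 libraries against their labels (edgeR adjusted p = 0.0714) and by DESeq2 (adjusted p = 0.054), and Srebf2 on variance-stabilised values with limma (-0.04, adjusted p = 0.0593). Of the 15 other synthesis genes 3 were lower (Tm7sf2, Pmvk and Ebp) and 12 did not pass. Lower in treated animals were also 2 of 11 uptake genes (Stard4 and Scarb1), 3 of 7 liver X receptor and efflux genes and 1 of 10 fatty acid synthesis genes, and none of these lists had a gene called higher. Of the 9 genes of SREBP processing and of the 7 of the isoprenoid branches edgeR called 0, with an unadjusted p under 0.05 for 0 and 2.

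The tests of whether effects differed between groups called 1 of the 8 genes in 1 of 5 interactions. The difference of the diet effect among strains passed for Insig1 (edgeR adjusted p = 0.00997, beside 4.13% of genes called). It did not pass by limma voom (adjusted p = 0.0927) or without the library at 65.3 CPM (edgeR adjusted p = 0.0572), and in the upper identifier range alone the edgeR adjusted p was 0.832. The other 7 had adjusted p-values of 0.342 to 0.966. The difference of the diet effect between sexes called 0 of the 8 in edgeR, against 0.568% of genes, while 4 had an unadjusted p under 0.05 (Lss, Insig1, Hmgcs1 and Sqle). Lss had the smallest adjusted p, at 0.0749, and Insig1 had 0.0786. For Lss the diet difference on log2 CPM was -0.18 ± 0.04 (SE, n = 236) in females and 0.001 ± 0.04 (SE, n = 233) in males. For Insig1 the diet difference on log2 CPM was -0.34 ± 0.06 (SE, n = 236) in females and -0.06 ± 0.06 (SE, n = 233) in males.

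The effect of metformin did not pass as different between diets (0 of 8, against 0.0902% of genes), with the smallest adjusted p at 0.365 for Insig1 and an unadjusted p under 0.05 for Insig1 and Hmgcs1. Between sexes 0 of 8 were called, against 3.12% of genes, with an unadjusted p under 0.05 for Idi1. Among strains 0 of 8 were called, against 11.6% of genes, with an unadjusted p under 0.05 for Insig1. Limma voom and the other settings also called 0 of the 8 in these 4 tests, which does not show that the effects were alike. For Insig1 the 95% interval of the difference between diets in the metformin effect was -0.33 to -0.05, which leaves out 0 before the adjustment.

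The genes varied together between animals of the same strain, sex and diet, except for Fdft1. Because the labels give no age, such animals can be of the 6-month or the 12-month cohort. The part of age in the correlations was not tested. Residuals of log2 CPM were correlated over the 469 untreated animals in 28 pairs, by Pearson's r and Spearman's rho with 100000 permutations and adjustment over the 28 pairs. In the 21 pairs without Fdft1, r ranged from 0.13 to 0.53 with a median of 0.38, rho ranged from 0.09 to 0.50, and all 21 passed by both. The highest were Hmgcs1 with Insig1 (r = 0.53, rho = 0.48), Sqle with Insig1 (r = 0.53, rho = 0.49) and Cyp51 with Insig1 (r = 0.52, rho = 0.50). Each of these had a permutation p of 1e-05 for r, the smallest the permutations can give, and an adjusted p of 1.56e-05. Leaving out the 2 animals farthest from the median of the first gene gave r = 0.54, 0.51 and 0.51. The lowest was Idi1 with Lss (r = 0.13, adjusted permutation p = 0.00817).

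The 7 pairs with Fdft1 had r between -0.20 and 0.06, and 2 of them passed by r, both negative, with Hmgcs1 (r = -0.20, rho = -0.14) and with Srebf2 (r = -0.15, rho = -0.16). The pair with Cyp51 passed by rho only (rho = -0.10). Over all 28 pairs the median r was 0.31 in untreated animals, 0.31 in the lower range alone (n = 400), 0.24 in the upper range alone (n = 69) and 0.33 in treated animals (n = 234). The number of pairs above 0 was 23, 23, 24 and 23. Insig1 had the highest median r with the other 7 genes, at 0.44, and Fdft1 the lowest, at -0.08.

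**Figure D5:**
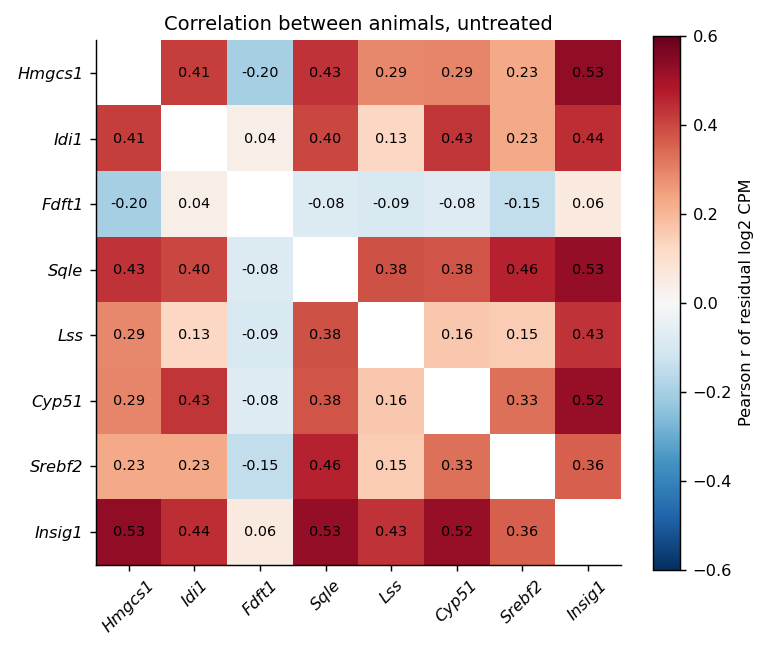
Pearson's r between each pair of the 8 genes over 469 untreated animals, on residuals of log2 CPM after strain, sex, diet and identifier range. Color runs from blue (negative) through white to red (positive). The row of Fdft1 runs from -0.20 to 0.06, and the other pairs from 0.13 to 0.53.

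The residuals also gave the genes whose pattern was most like that of the 8, by r with the mean of their standardized residuals over the same 469 animals. Outside the lists these were Agpat2, a phosphatidate-forming acyltransferase (r = 0.68), the mitochondrial citrate and dicarboxylate carriers Slc25a1 (r = 0.64) and Slc25a10 (r = 0.63), the pentose phosphate enzymes Tkt (r = 0.63) and Pgd (r = 0.58), and Pygl (r = 0.61), Mmd (r = 0.61), Cdo1 (r = 0.58), Ppp1r3b (r = 0.58) and Ptger3 (r = 0.58). In the treated animals the same r was between 0.55 and 0.73 for these 10. Of the 20 genes most alike among 10715 compared, 14 were in the lists, which include the 8 genes themselves. Insig1 (r = 0.74) and Sqle (r = 0.62), each compared with the mean of the other 7, were among the 14. Most of the 14 were fatty acid synthesis genes, such as Fasn (r = 0.62). The count has no background share beside it and is a description. Fdft1, compared with the mean of the other 7, had r = -0.11 and ranked 8518.

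Markers of other cell types moved with some of these residuals over the same animals. With the summed adipocyte markers, r was 0.56 for Insig1 (rho = 0.41), 0.44 for Hmgcs1 (rho = 0.32), 0.32 for Lss and 0.24 for Sqle, and it was 0.04 to 0.16 for Idi1, Cyp51, Srebf2 and Fdft1. With the summed hepatocyte markers, r lay between -0.04 and 0.22 for the 8 genes. With the summed muscle fiber markers, r was 0.35 for Fdft1 and between -0.27 and -0.15 for the other 7, so that Fdft1 was the only one of the 8 with a positive r. With the summed macrophage markers, r was 0.32 for Srebf2 (rho = 0.27) and -0.30 for Fdft1 (rho = -0.25), and 0.0008 to 0.17 for the other 6. With the summed endothelial cell markers, r was -0.27 for Fdft1, 0.22 for Hmgcs1 and -0.21 for Cyp51, and -0.15 to 0.11 for the other 5. With the summed Schwann cell markers, r lay between -0.05 and 0.17. Adipocyte markers summed to a median of 214.6 CPM over all libraries (range 86.9 to 1846), and each of the 8 had a median above 0. The part of these cells in the correlations was not tested.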

How the data were processed

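The authors aligned reads to a combined transcriptome of the 8 founder strains and divided them between alleles and genes by expectation maximization (EMASE), and they kept genes with a read in a set share of the samples. A near-identical copy of a gene could therefore take or give reads. The deposited values used here are estimated counts per gene, given as whole numbers, and, as an alternative, the authors' log2-scale values from the variance-stabilizing transform of DESeq2. The submitters' processing notes name the build GRCm38, and its annotation release is not stated in the sources. Each library is 1 animal. The paper states that housing and diet were assigned at random by litter. No litter or cage term entered the fits, which treat animals as independent.

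Counts were filtered with filterByExpr, scaled by TMM and fitted in edgeR 4.0.16 (R 4.3.3) by quasi-likelihood, with strain, sex, diet and identifier range as terms, treatment where both kinds of animal entered, and an interaction where stated. P-values were adjusted by Benjamini-Hochberg over all genes tested, with 0.05 as threshold. CPM values are TMM-scaled, and log2 CPM has a prior count of 2. Alternatives were DESeq2 1.42.0, limma 3.58.1 (voom, and the deposited log2 values), other size factors, no filter, each identifier range alone, marker sums as covariates, and leaving out libraries by label or marker sum. Counts were simulated for the diet fit in untreated animals, with set diet changes and no strain, sex or range effect. There the fit recovered the set changes, but genes of very high dispersion were called too often. The other edgeR fits were not simulated.

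The members and lists were chosen with earlier results of these data known. All 8 genes were named in each comparison. The rule for the lists allowed up to 6 called genes to be named per comparison, largest change first. It also allowed Dhcr7, Srebf1 and Fasn whatever their values. Not every gene that it allowed was named in each comparison. Some genes of the lists are counted but not reported by name here. The 10 genes most alike were taken outside the lists, among genes whose mean log2 CPM reached 1. Genes in small counts that fall outside this rule, and the parent lines, were named after their values were seen.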

Additional observations from a re-analysis of the deposited data

Results flagged for a closer look

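The diet effect on Insig1 differed among strains by the interaction test in untreated animals (edgeR adjusted p = 0.00997), with log2 differences, 44% minus 10% fat, from -0.74 in (CC012/GeniUncJ x CC002/UncJ)F1 to 0.38 in (CC019/TauUncJ x CC042/GeniUncJ)F1. The library highest in Insig1, at 65.3 CPM on 44% fat, belongs to the second of these strains and enters its value. Leaving out that library, a choice made after seeing the data, gave an edgeR adjusted p of 0.0572. In the metformin-treated animals of the same strains the differences were -0.54 ± 0.19 (SE, n = 12) and -0.17 ± 0.21 (SE, n = 12).

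In untreated (CC009/UncJ x CC013/GeniUncJ)F1 animals, 1 library of 10 had an Fdft1 level of 56.8 CPM, far above the others, whose strain median was 38.6 CPM. Only this strain had 10 or fewer untreated libraries, and all 8 genes were checked in it. Chance gives such a gap in about 1 of 20 groups.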

How the results depend on the processing

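The 7 diet calls in untreated animals kept their direction under every alternative run, and 5 of them lost their call, all in the upper identifier range alone, where 2 genes were called. In treated animals 3 were called there. The count for sex was 0 there, and the count for metformin was 0 in the lower and 0 in the upper range alone. The upper range holds 69 untreated and 90 treated libraries, and the lower range 400 and 144. The cause of the lost calls was not tested. For diet by strain the count was 0 with limma voom, 0 in the upper range alone and 0 without the library highest in Insig1, an alternative chosen after seeing the data. The sex difference of Lss turned to 0.0234 in the upper range and that of Hmgcs1 to 0.0444 with 3 marker sums as covariates, and the cause was not tested. DESeq2 gave an adjusted p of 0.054 for Idi1 and metformin. The diet difference of Sqle in untreated animals was -0.1305 on variance-stabilised values with limma and -0.372 to -0.3179 under the others, and that of Insig1 ranged from -0.2797 to -0.1599. On the variance-stabilised scale the called differences of Sqle, Lss and Cyp51 for diet and sex and that of Idi1 for diet in treated animals were also smaller by over 1.5 times, with their calls kept. No paired analysis was possible because the labels give each library the same replicate number.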
